A study of Saccharomyces cerevisiae and Saccharomyces mikatae and Saccharomyces paradoxus with 13 samples.

Results

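The 48 genes described here encode proteins of the small subunit (SSU) processome and its partners in budding yeast. They were chosen by ORF name as UTP proteins, proteins of the box C/D and box H/ACA small nucleolar ribonucleoproteins (snoRNPs), and other factors that process the precursor of the small-subunit rRNA. All 48 were found among the 6132 ORFs of the array table. The rule uses ORF names and no measured value, although earlier results of these data were known when the list was drawn up. The SSU processome is a large assembly that forms in the nucleolus on the nascent ribosomal RNA precursor. Around the U3 snoRNA it folds the small-subunit part of that precursor and prepares its cleavage, so it stands at the start of 40S ribosome production. Its genes belong to the ribosome biogenesis regulon, which yeast is known to turn up when it grows fast and down under many stresses.

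RNA was compared on 13 arrays of S. cerevisiae cDNA probes, each hybridised with 2 colours. On 4 arrays, a-type haploid S. mikatae cells derived from IFO 1815 had received 6 µM alpha factor, the mating pheromone that arrests a cells, for 60 min. On 3 arrays, a-type haploid S. paradoxus cells derived from CBS432 had received the same dose for the same time. On 3 mating arrays, S. cerevisiae BY4741 (a) and BY4742 (alpha) haploids were mixed on a filter on YPD agar at 30 °C for 90 min. On the last 3, BY4741 cells had received 6 µM alpha factor for 60 min. Alpha factor was given to log-phase cells in YPD at 30 °C, and its reference was untreated cells of the same species. The mating reference was the same 2 strains incubated apart and pooled only before RNA extraction. The series describes the arrays of a species as biological replicates, and the labels give 1 strain per species and mating type, so strain and species cannot be told apart.

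Every value is given as a log2 ratio, treated or mated over reference, after each array was centred on its median, so 0 is the behaviour of the median gene. The log base is not given in the sources used here and was taken as 2, and every fold rests on that reading. The channel labels put the treated sample in Cy5, whereas the labelling protocol puts it in Cy3, which leaves the sign of the ratio likely, not certain. The sign was taken from the order of the channels and is the one that gives a rise of FIG1, a gene of pheromone-induced cell fusion, by 4.62 in S. mikatae, 5.02 in S. paradoxus, 4.97 in mating and 4.97 in S. cerevisiae with alpha factor. Of other pheromone-induced genes, FUS1, KAR4 and FUS3 were above 0 on every array, as was PRM1 wherever it was measured. AGA1 gave 0.58, −0.12, −0.18 and 0.39 in S. mikatae and had no value in mating. With alpha factor it lay between 3.25 and 4.06 in S. paradoxus and S. cerevisiae. All 78 pairs of arrays correlated positively over the genes (r between 0.369 and 0.899), so no array ran the other way from the rest. Arrays held 4253 to 4304 values in S. mikatae, 4367 to 4777 in S. paradoxus, 3616 to 3740 in mating and 5678 to 5964 in S. cerevisiae with alpha factor. Ratios show changes and not levels, so they cannot show whether a culture held the labelled cell type. STE2, the a-cell receptor for alpha factor, rose by 1.97, 1.81, 1.51 and 1.10 in that order of groups, and all 4 rises were called. STE3, the alpha-cell receptor for a-factor, was called higher at 0.33 in S. mikatae, 0.50 in S. paradoxus and 1.63 in mating, and was at 0.14 with an adjusted p of 0.189 in S. cerevisiae with alpha factor. SAG1, the alpha-cell agglutinin, was called higher at 2.54 in mating and 0.54 in S. cerevisiae with alpha factor, and was at 0.091 in S. mikatae and −0.064 in S. paradoxus. MF(ALPHA)1, an alpha factor gene, was measured in mating alone, at 0.55, and was not called (adjusted p = 0.0625).

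Alpha factor was followed by lower RNA of most SSU processome genes in each species. A gene was called when limma's moderated test gave a Benjamini-Hochberg adjusted p under 0.05 over all genes tested. In S. mikatae 36 of 44 tested members fell and 2 rose, where 24.7% of all genes were called lower and 23.3% higher. In S. paradoxus 38 of 42 fell and 1 rose, against 24.6% and 23.9% of all genes. In S. cerevisiae 27 of 48 fell and 1 rose, against 17.3% and 16.3% of all genes. The median over the tested members was −0.42 in S. mikatae, −0.58 in S. paradoxus and −0.33 in S. cerevisiae with alpha factor. In mating 3 of 26 tested members fell and 2 rose, where 20.2% of all genes were called lower and 19.4% higher, and the median was 0.00050. The mating count depended on the processing: 7 fell and 2 rose with arrays scaled to a common spread, 6 fell and 2 rose with quantile normalization or the replicate block (25 tested with the block), and 5 fell and 4 rose with only the mating arrays in the fit. The shares of all genes called under these settings were not computed, so these counts have no background beside them. In mixed RNA from a whole culture, fewer cells that express a gene and less RNA per cell cannot be told apart.

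The shift was seen on each alpha factor array. The median over the members measured on every array of the group was −0.36, −0.48, −0.50 and −0.49 on the 4 S. mikatae arrays and −0.59, −0.65 and −0.47 on the 3 S. paradoxus arrays. It was −0.12, −0.0064 and 0.035 on the mating arrays, against −0.34, −0.37 and −0.34 on the S. cerevisiae alpha factor arrays. All alpha factor arrays thus lay below all mating arrays. The arrays did not measure the same members, so the 18 members measured on all 13 arrays were taken alone. Their median averaged −0.44 ± 0.0643 in S. mikatae (SD, n = 4), −0.64 ± 0.172 in S. paradoxus, −0.022 ± 0.0911 in mating and −0.30 ± 0.0692 in S. cerevisiae with alpha factor (SD, n = 3 each). The order of the groups was the same as for all tested members.

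**Figure D1:**
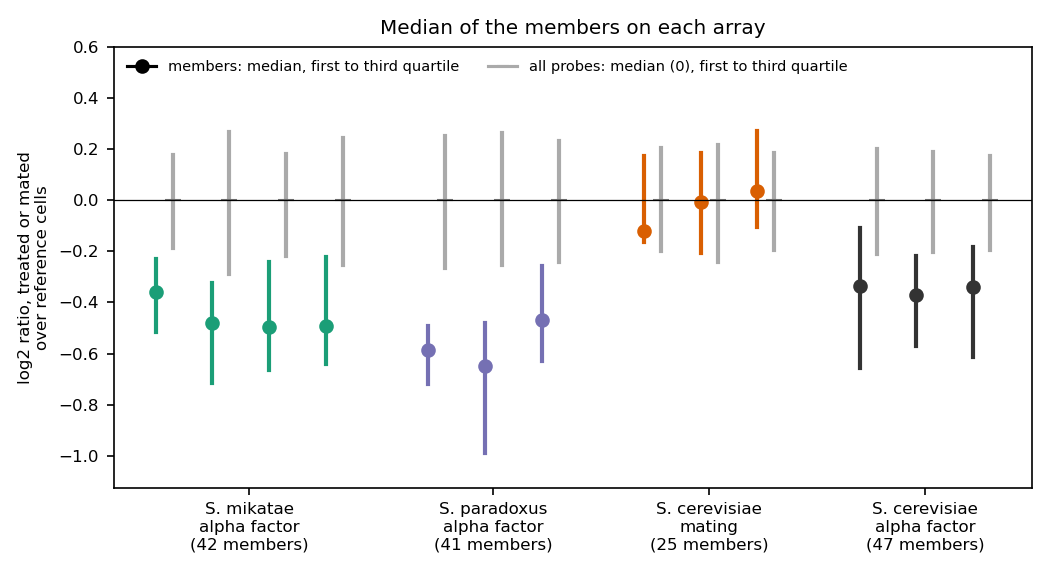
Median log2 ratio of the SSU processome genes on each array (vertical axis; 1 point per array, grouped by species and treatment), with bars from the first to the third quartile over the members and the same for all probes in grey. The medians lie between −0.65 and −0.34 on the 10 alpha factor arrays and between −0.12 and 0.035 on the 3 mating arrays.

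Counting arrays in place of tests gave a similar picture. Of members measured on every array of a group, 35 of 42 were below 0 on all 4 S. mikatae arrays, where 31.6% of all genes were. In S. paradoxus 38 of 41 were below 0 on all 3 arrays, against 35.5% of all genes. In mating 10 of 25 were, against 34.7% of all genes, and in S. cerevisiae with alpha factor 38 of 47, against 33% of all genes. Above 0 on every array were 1 member in S. mikatae, 1 in S. paradoxus, 6 in mating and 2 in S. cerevisiae with alpha factor, where 29.7%, 35.4%, 32.9% and 32.7% of all genes were. Missing values fell mostly on mating: 22 of the 48 members (45.8%) had no value on any mating array, where 37.2% of all probes had none. In S. mikatae 4 members (CBF5, LCP5, UTP11 and UTP30) and in S. paradoxus 6 (ECM16, GAR1, KRE33, MPP10, UTP11 and UTP22) had no value, and in S. cerevisiae with alpha factor all 48 had one.

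**Figure D2:**
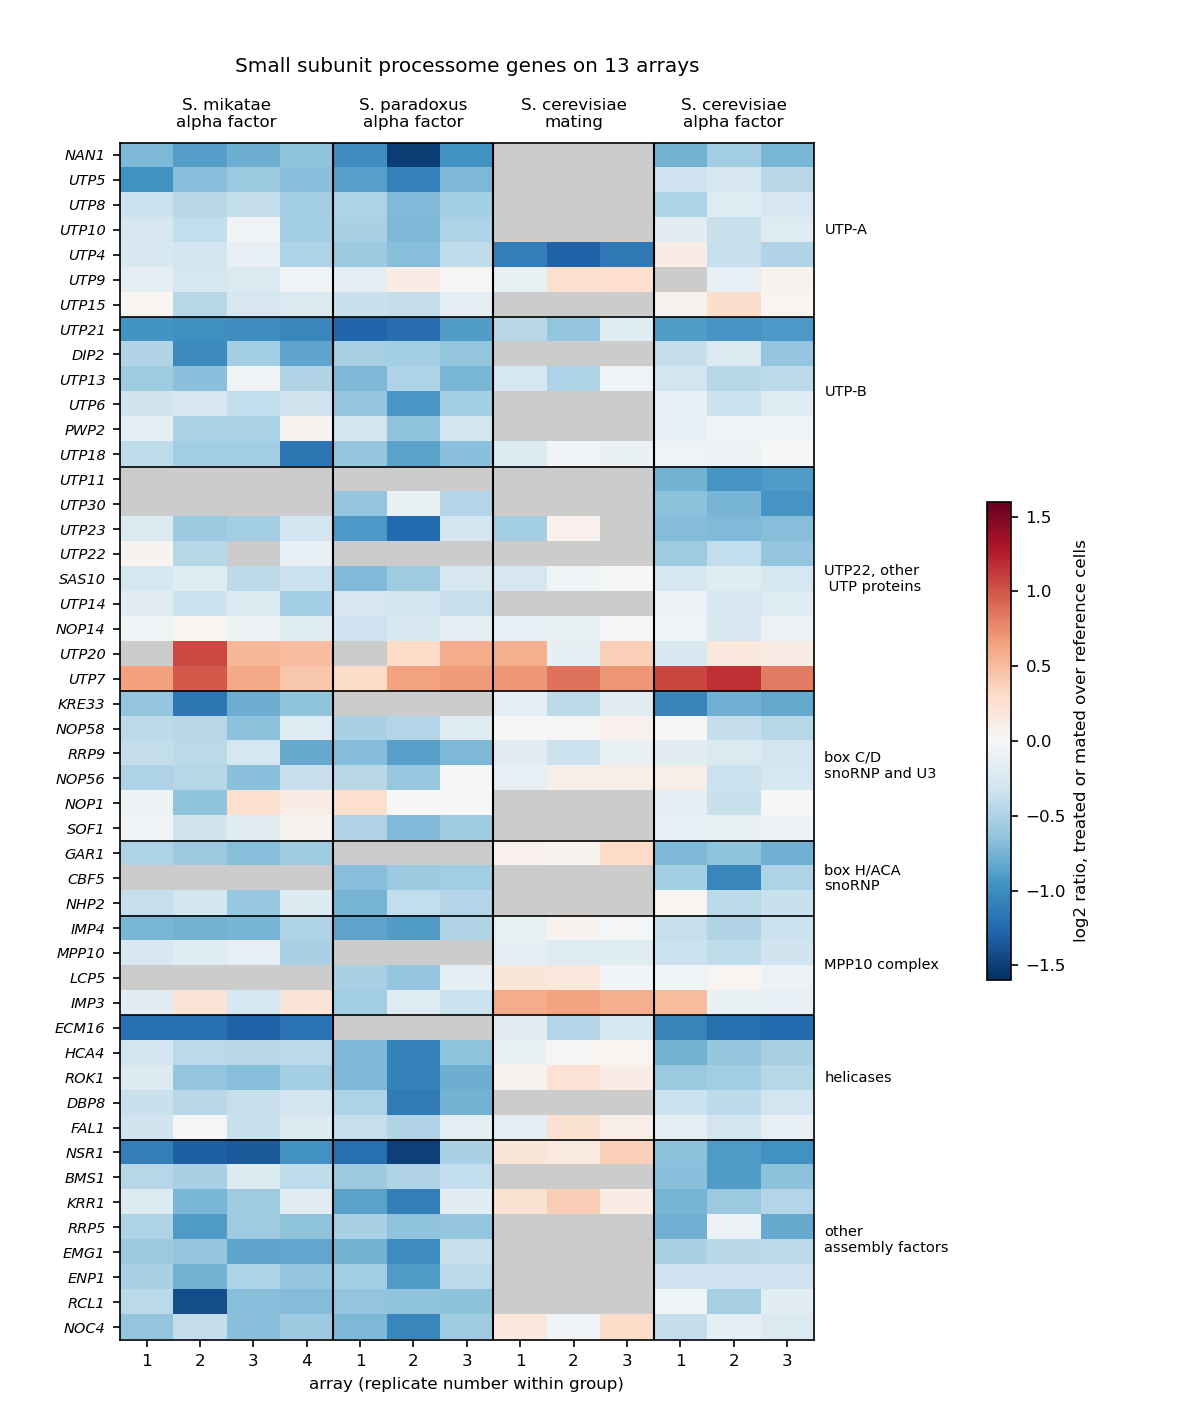
Log2 ratio of each of the 48 SSU processome genes (rows, grouped by role) on each of the 13 arrays (columns), as a colour scale, with missing values in grey. Most rows are below 0 on the alpha factor arrays, UTP7 is above 0 on all 13 arrays, and 22 rows hold no value in mating.

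The UTP-A proteins, which bind the 5′ end of the precursor first and are also linked to transcription of the ribosomal DNA, fell in 6 of 7 cases in S. mikatae and in S. paradoxus, and in 3 of 7 in S. cerevisiae with alpha factor. Of all genes, 24.7%, 24.6% and 17.3% were called lower in these responses, in that order. NAN1 (YPL126W, also called UTP17) fell most among the UTP-A proteins. Its ratios were −0.72, −0.88, −0.78 and −0.64 in S. mikatae, −1.0, −1.51 and −0.97 in S. paradoxus, and −0.75, −0.55 and −0.73 in S. cerevisiae with alpha factor. No NAN1 array reached 0 in any species, and the fall was 1.69-fold, 2.23-fold and 1.60-fold in that order (adjusted p = 2.71e-05, 4.03e-06 and 0.000482). UTP5 (YDR398W) averaged −0.73 ± 0.162 in S. mikatae (SD, n = 4), −0.89 ± 0.184 in S. paradoxus and −0.35 ± 0.0894 in S. cerevisiae with alpha factor (SD, n = 3 each), and was called lower in all 3. The S. cerevisiae call of UTP5 was lost without array 3 (adjusted p = 0.0872). UTP8, which is also involved in nuclear export of tRNA, was called lower in all 3 species as well, at −0.43, −0.58 and −0.32, its S. cerevisiae call being lost without array 1 (adjusted p = 0.0684). UTP10, a long helical-repeat protein, fell in S. mikatae and S. paradoxus, at −0.32 and −0.58, and at −0.25 missed the threshold in S. cerevisiae with alpha factor (adjusted p = 0.0541). UTP15 averaged −0.23 and −0.29 in S. mikatae and S. paradoxus, both called, and 0.13 in S. cerevisiae with alpha factor, which was not (adjusted p = 0.336). Its S. mikatae call was lost without array 2, 3 or 4 (adjusted p between 0.0833 and 0.173) and its S. paradoxus call without array 1 or 2 (0.111 and 0.119). UTP9 was called in no species. It averaged −0.18, −0.0028 and −0.037 in the 3 species, the last from 2 arrays.

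The UTP-B complex, which joins after UTP-A, showed lower RNA for all 6 proteins in S. mikatae and in S. paradoxus and for 3 of 6 in S. cerevisiae with alpha factor. The shares of all genes called lower were again 24.7%, 24.6% and 17.3%. UTP21 (YLR409C) was among the lowest of all members. It gave −0.95, −0.98, −0.99 and −1.05 in S. mikatae, −1.27, −1.22 and −0.89 in S. paradoxus, −0.44, −0.63 and −0.20 in mating, and −0.89, −0.94 and −0.92 in S. cerevisiae with alpha factor. The S. mikatae and the S. cerevisiae alpha factor arrays were tightly grouped, and the mating arrays lay above every alpha factor array, though below 0. The fall was 1.99-fold in S. mikatae, 2.18-fold in S. paradoxus, 1.34-fold in mating and 1.89-fold in S. cerevisiae with alpha factor (adjusted p = 1.95e-07, 3.19e-07, 0.00173 and 4.25e-06).

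UTP18 (YJL069C), another UTP-B subunit, lay nearer 0 in S. cerevisiae with alpha factor than in the other species. Its ratios were −0.41, −0.56, −0.56 and −1.15 in S. mikatae and −0.62, −0.86 and −0.66 in S. paradoxus, against −0.066, −0.083 and 0.00036 in S. cerevisiae with alpha factor. The S. cerevisiae arrays overlapped neither of the other species. Of all genes, 18.5% lay wholly lower in S. paradoxus than in S. cerevisiae, and 13% wholly lower in S. mikatae. PWP2, the WD-repeat protein after which the complex is often named, was called lower in S. mikatae and S. paradoxus but not in S. cerevisiae. It averaged −0.28 ± 0.273 in S. mikatae (n = 4), −0.41 ± 0.200 in S. paradoxus and −0.075 ± 0.0524 in S. cerevisiae with alpha factor (n = 3 each; SD). The adjusted p was 0.0324, 0.00933 and 0.63 in that order. The PWP2 call was lost in S. mikatae without array 2 or array 3 (adjusted p = 0.153 and 0.149) and in S. paradoxus without array 2 (0.088). DIP2 (UTP12), UTP13 and UTP6 were called lower in S. mikatae and S. paradoxus, at means between −0.33 and −0.73. In S. cerevisiae with alpha factor UTP6, at −0.22, missed the threshold (adjusted p = 0.0537). DIP2 and UTP13 were called there at −0.41 and −0.40, but the DIP2 call was lost without array 3 (0.106) and the UTP13 call without array 2 or 3 (0.0681 and 0.0698).

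The remaining UTP proteins were the most varied group: 3 of 7 fell and 2 rose in S. mikatae, 5 of 7 fell and 1 rose in S. paradoxus, and 5 of 9 fell and 1 rose in S. cerevisiae with alpha factor. Of all genes, 24.7% fell and 23.3% rose in S. mikatae, and 24.6% fell and 23.9% rose in S. paradoxus. In S. cerevisiae with alpha factor 17.3% fell and 16.3% rose. UTP7 (YER082C), a WD-repeat protein of the SSU processome, rose in every group. Its ratios were 0.66, 0.98, 0.61 and 0.44 in S. mikatae, 0.29, 0.64 and 0.68 in S. paradoxus, 0.69, 0.86 and 0.71 in mating, and 1.07, 1.17 and 0.83 in S. cerevisiae with alpha factor. UTP7 was thus above 0 on all 13 arrays. The means were 0.67 ± 0.226 (SD, n = 4), 0.54 ± 0.213, 0.75 ± 0.0944 and 1.02 ± 0.178 (SD, n = 3 each), with adjusted p of 4.00e-05, 0.000818, 9.59e-05 and 1.03e-05 from limma. Of its neighbours in the S. cerevisiae genome, SER3, on one side, was lower at −0.27 in mating and −0.29 in S. cerevisiae with alpha factor. GET2, on the other side, was called higher in mating, at 0.19 (adjusted p = 0.0392), and was not called at 0.022 in S. mikatae, 0.021 in S. paradoxus and 0.043 in S. cerevisiae with alpha factor. Gene order in the other species was not checked.

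UTP20 (YBL004W), a large scaffold protein of helical repeats, was the second member called higher in S. mikatae. It had no value on 1 array of S. mikatae and 1 of S. paradoxus. The measured ratios were 1.05, 0.53 and 0.50 in S. mikatae, 0.31 and 0.59 in S. paradoxus, 0.58, −0.16 and 0.39 in mating, and −0.25, 0.17 and 0.12 in S. cerevisiae with alpha factor. The 3 S. mikatae values lay above all 3 S. cerevisiae alpha factor values, but the difference of 0.68 (95% interval 0.22 to 1.13) missed the threshold (adjusted p = 0.0558). HTA2, a histone H2A gene beside UTP20 in S. cerevisiae, was at −2.51 in mating and −2.81 in S. cerevisiae with alpha factor and was not measured in the other species. UTP22, which binds with casein kinase as the UTP-C complex, was measured on 3 S. mikatae arrays at 0.043, −0.46 and −0.13 and was not called there, and fell in S. cerevisiae with alpha factor at −0.56, −0.40 and −0.61 (adjusted p = 0.00518). UTP11 and UTP30 fell in S. cerevisiae with alpha factor, by 1.83-fold and 1.72-fold. UTP11 had no value in any other group, and UTP30 none in S. mikatae or in mating. In S. paradoxus UTP30 averaged −0.40, a call that was lost without array 1 or 3 (adjusted p = 0.096 and 0.0639).

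NOP14, SAS10, UTP14 and UTP23 were listed with these proteins. NOP14, which binds NOC4, moved least: it averaged −0.078 in S. mikatae, −0.24 in S. paradoxus, −0.082 in mating and −0.14 in S. cerevisiae with alpha factor, and was called only in S. paradoxus (adjusted p = 0.0102), where the call was lost without array 1 (0.0841). UTP23, a PIN-domain protein that releases the snR30 snoRNA, gave −0.24, −0.58, −0.55 and −0.30 in S. mikatae, −0.92, −1.25 and −0.31 in S. paradoxus, and −0.70, −0.71 and −0.69 in S. cerevisiae with alpha factor. The S. cerevisiae arrays were nearly equal, whereas the S. paradoxus arrays spanned almost 1 log2 unit. The UTP23 call in S. mikatae was lost without array 2 or 3 (adjusted p = 0.0753 and 0.0696). UTP14 averaged −0.32 in S. mikatae and −0.31 in S. paradoxus, both called, and −0.19 in S. cerevisiae with alpha factor, which was not (adjusted p = 0.0855). SAS10 was called lower in all 3 species at −0.31, −0.51 and −0.25, but its S. cerevisiae call was lost without any 1 of the 3 arrays (adjusted p between 0.0713 and 0.142).

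**Figure D3:**
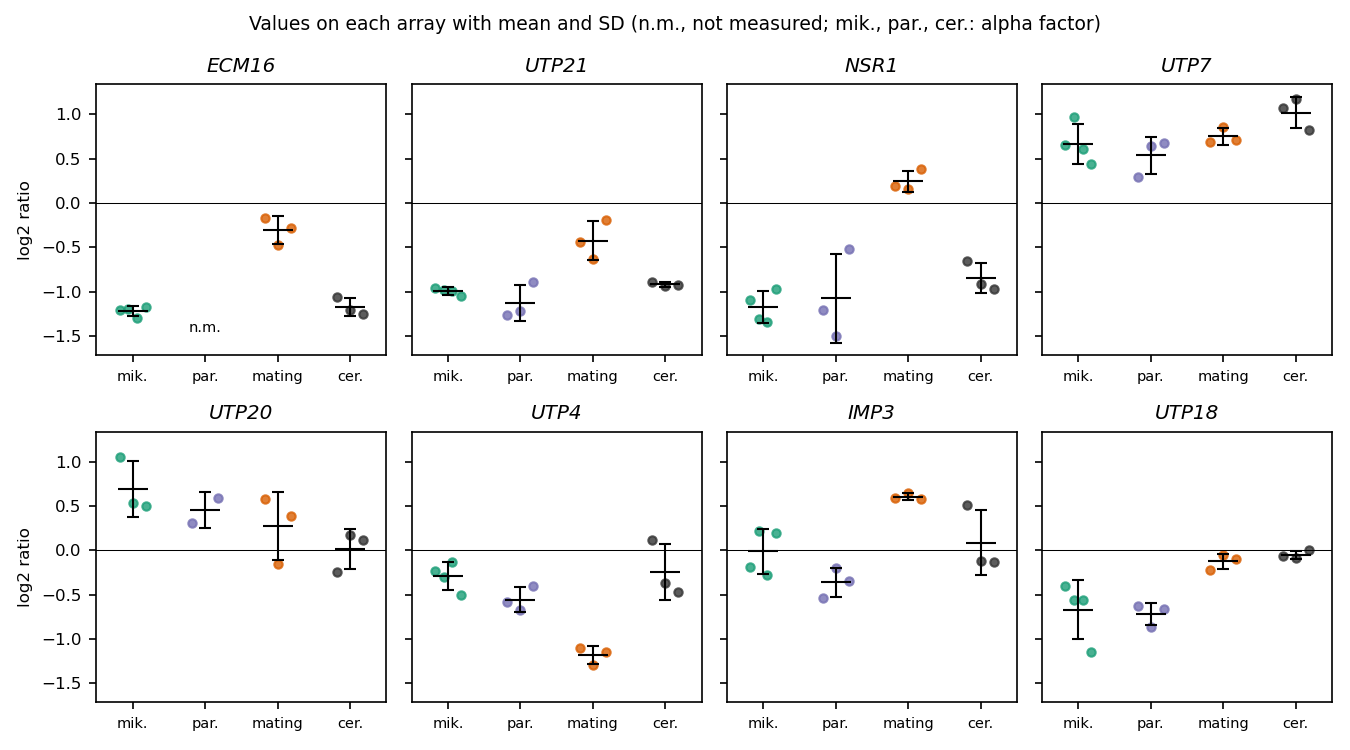
Log2 ratios on each array (points, vertical axis) of 8 SSU processome genes in the 4 groups, with horizontal bars for the group means and error bars for the SD; mik., par. and cer. are the alpha factor groups and n.m. is not measured. ECM16, UTP21 and NSR1 lie lower with alpha factor than in mating, UTP7 is above 0 throughout, and UTP4 is lowest in mating, at a mean of −1.18.

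In the group of box C/D snoRNP and U3 proteins, 4 of 6 fell in S. mikatae, 4 of 5 in S. paradoxus and 2 of 6 in S. cerevisiae with alpha factor. The shares of all genes called lower were 24.7%, 24.6% and 17.3% in that order. NOP1 (YDL014W), the yeast fibrillarin that 2′-O-methylates rRNA, was called in no species. Its ratios were −0.079, −0.65, 0.26 and 0.12 in S. mikatae, 0.26, −0.0079 and 0.0079 in S. paradoxus, and −0.14, −0.35 and −0.00025 in S. cerevisiae with alpha factor. These arrays lay on both sides of 0 in S. mikatae and S. paradoxus. NOP56 and NOP58, the scaffold pair that holds NOP1 on the snoRNA, fell in S. mikatae to −0.50 ± 0.127 and −0.43 ± 0.187 (SD, n = 4; adjusted p = 0.000801 and 0.000867). In S. paradoxus they averaged −0.35 ± 0.308 and −0.39 ± 0.171 (SD, n = 3), and the NOP56 call (adjusted p = 0.0173) was lost without array 1 or array 2 (0.0989 and 0.171). In S. cerevisiae with alpha factor NOP56 was not called, at −0.17 ± 0.240, and the NOP58 call at −0.29 ± 0.230 (adjusted p = 0.0362) was lost without array 2 or array 3 (0.163 and 0.251).

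KRE33 (YNL132W), an RNA acetyltransferase that uses box C/D snoRNAs as guides, fell more. It gave −0.63, −1.16, −0.78 and −0.64 in S. mikatae, −0.15, −0.42 and −0.18 in mating, and −1.06, −0.77 and −0.82 in S. cerevisiae with alpha factor, and had no value in S. paradoxus. The mating arrays overlapped none of the others. The fall was 1.74-fold in S. mikatae and 1.85-fold in S. cerevisiae with alpha factor (adjusted p = 2.42e-05 and 0.000101), and mating missed the threshold (0.0787). RRP9 (YPR137W), the U3-specific protein, averaged −0.48 ± 0.229 in S. mikatae (SD, n = 4), −0.76 ± 0.0970 in S. paradoxus and −0.23 ± 0.0651 in S. cerevisiae with alpha factor (SD, n = 3 each), and SOF1 (YLL011W), a WD-repeat protein tied to U3, −0.12, −0.59 and −0.11. SOF1 was called in S. paradoxus alone, at an adjusted p of 0.000108.

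The box H/ACA snoRNPs make pseudouridine in rRNA, and 3 of their proteins were included. CBF5 (YLR175W), the pseudouridine synthase, fell to −0.60 ± 0.0653 in S. paradoxus and −0.69 ± 0.300 in S. cerevisiae with alpha factor (SD, n = 3 each; adjusted p = 0.00183 and 0.00178) and had no value in S. mikatae or in mating. GAR1 (YHR089C), which binds CBF5, gave −0.49, −0.58, −0.68 and −0.57 in S. mikatae, 0.073, 0.061 and 0.32 in mating, and −0.72, −0.64 and −0.77 in S. cerevisiae with alpha factor. All mating arrays of GAR1 were above 0, and all alpha factor arrays well below. The fall was 1.50-fold in S. mikatae and 1.64-fold in S. cerevisiae with alpha factor (adjusted p = 1.59e-05 and 2.96e-05). NHP2, which binds the guide RNA of these particles, fell in S. mikatae and S. paradoxus, at −0.37 and −0.54. In S. cerevisiae with alpha factor NHP2 gave 0.026, −0.44 and −0.36 and was not called (adjusted p = 0.0825), except when array 1 was left out (0.0264).

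MPP10, IMP3 and IMP4 form a complex that contacts U3 and the precursor, and LCP5 was grouped with them. IMP4 (YNL075W) fell in each species, with ratios of −0.73, −0.75, −0.74 and −0.49 in S. mikatae, −0.85, −0.90 and −0.48 in S. paradoxus, and −0.36, −0.49 and −0.34 in S. cerevisiae with alpha factor. Its mating ratios of −0.11, 0.053 and −0.013 stayed near 0. MPP10 fell to −0.27 ± 0.170 in S. mikatae (n = 4) and −0.35 ± 0.0422 in S. cerevisiae with alpha factor (n = 3; SD; adjusted p = 0.0054 and 0.0048) and was not measured in S. paradoxus. IMP3 (YHR148W) showed no common direction. With alpha factor it gave −0.19, 0.21, −0.28 and 0.20 in S. mikatae, −0.54, −0.20 and −0.34 in S. paradoxus, and 0.51, −0.12 and −0.13 in S. cerevisiae, so the arrays of S. mikatae and S. cerevisiae lay on both sides of 0. The IMP3 call in S. paradoxus (adjusted p = 0.028) was lost without array 1 or array 3 (0.176 and 0.0766). LCP5 was called lower in S. paradoxus alone (−0.43; adjusted p = 0.00369), was at −0.043 in S. cerevisiae with alpha factor and had no value in S. mikatae.

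The RNA helicases of the assembly fell throughout S. mikatae (5 of 5) and S. paradoxus (4 of 4). In S. cerevisiae with alpha factor 4 of 5 fell. The shares of all genes called lower were 24.7%, 24.6% and 17.3% in that order. ECM16 (YMR128W, also called DHR1), the DEAH-box helicase that unwinds U3 from the precursor, was the lowest member with alpha factor in both species that measured it. Its ratios were −1.20, −1.19, −1.30 and −1.18 in S. mikatae, −0.16, −0.47 and −0.28 in mating, and −1.06, −1.21 and −1.25 in S. cerevisiae with alpha factor. The alpha factor arrays of ECM16 formed 1 tight group and the mating arrays another. The fall was 2.33-fold in S. mikatae, 1.24-fold in mating and 2.25-fold in S. cerevisiae with alpha factor (adjusted p = 4.04e-08, 0.00648 and 4.56e-07), and the mating call was lost without array 2 (0.0684). Over all genes tested, ECM16 ranked 40th from the lowest of 4367 in S. mikatae and 35th of 5789 in S. cerevisiae with alpha factor.

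Of the other helicases, ROK1 averaged −0.51 in S. mikatae, −0.86 in S. paradoxus and −0.53 in S. cerevisiae with alpha factor, and HCA4 (DBP4) −0.40, −0.81 and −0.64. Both are DEAD-box proteins and both calls in all 3 species stayed when any 1 array was left out. DBP8, another DEAD-box protein, averaged −0.37, −0.79 and −0.36, but its S. cerevisiae call was lost without any 1 array (adjusted p between 0.0532 and 0.0737). FAL1, which resembles the translation factor eIF4A, moved less, at −0.23, −0.33 and −0.20. Its S. mikatae call was lost without array 1, 3 or 4 (adjusted p = 0.108, 0.12 and 0.0669), its S. paradoxus call without array 2 (0.079), and it was not called in S. cerevisiae.

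The 8 other assembly factors all fell in S. mikatae and in S. paradoxus, and 6 of 8 fell in S. cerevisiae with alpha factor. Of all genes, 24.7%, 24.6% and 17.3% were called lower in that order. NSR1 (YGR159C), the yeast nucleolin, gave −1.09, −1.30, −1.34 and −0.97 in S. mikatae, −1.21, −1.50 and −0.52 in S. paradoxus, 0.19, 0.16 and 0.38 in mating, and −0.66, −0.91 and −0.97 in S. cerevisiae with alpha factor. NSR1 was thus below 0 on all 10 alpha factor arrays and above 0 on all 3 mating arrays. The alpha factor falls were 2.26-fold, 2.11-fold and 1.80-fold in the 3 species (adjusted p = 3.89e-06, 3.95e-05 and 0.000607), and the mating mean of 0.24 ± 0.121 (SD, n = 3) was not called (0.181). The third S. paradoxus array was the shallowest of its group for NSR1, as it was for KRR1 and UTP23.

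BMS1 (YPL217C), the GTPase of the complex, fell to −0.40 ± 0.131 in S. mikatae (SD, n = 4), −0.49 ± 0.0946 in S. paradoxus and −0.74 ± 0.135 in S. cerevisiae with alpha factor (SD, n = 3 each; adjusted p = 0.000504, 0.000389 and 4.29e-05). RCL1, the partner that BMS1 brings to the precursor, gave −0.44, −1.42, −0.69 and −0.69 in S. mikatae, −0.64, −0.64 and −0.65 in S. paradoxus, and −0.063, −0.53 and −0.17 in S. cerevisiae with alpha factor. RCL1 was called in S. mikatae and S. paradoxus and not in S. cerevisiae (adjusted p = 0.213). EMG1, an rRNA methyltransferase, averaged −0.72, −0.70 and −0.46 in the 3 species, and ENP1, which travels with the particle to the cytoplasm, −0.60, −0.63 and −0.33. The ENP1 call in S. cerevisiae was lost without any 1 of its arrays (adjusted p between 0.0549 and 0.0702). NOC4, the partner of NOP14, averaged −0.57 and −0.78 in S. mikatae and S. paradoxus, both called, 0.14 in mating, and −0.25 in S. cerevisiae with alpha factor (adjusted p = 0.0545). KRR1 averaged −0.42, −0.71 and −0.60 in the 3 species, its S. mikatae call being lost without array 2 or 3 (adjusted p = 0.0815 and 0.0575). RRP5, which works on both subunits, averaged −0.65, −0.59 and −0.56. Its S. cerevisiae arrays read −0.77, −0.090 and −0.81, and the call was lost without array 3 (adjusted p = 0.0632).

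Across species, 39 members were tested in all 3 alpha factor responses. Of these, 19 (48.7%) were called lower in all 3 species, where 404 of 4084 genes (9.89%) were. In 2 species 13 members were lower, and in 1 species 3 were (IMP3, NOP14 and SOF1, each in S. paradoxus). NOP1, UTP7, UTP9 and UTP20 were lower in none. Of the 4084 genes, 449 were lower in 2 species, 668 in 1 and 2563 in none. The members that were low in one species tended to be low in the others: Pearson's r over the group means was 0.865 between S. mikatae and S. paradoxus (39 members), 0.769 between S. mikatae and S. cerevisiae (44 members) and 0.734 between S. paradoxus and S. cerevisiae (42 members). Without UTP7 these were 0.822, 0.693 and 0.629, and over all genes 0.731, 0.703 and 0.659. All groups were read on probes of the same design, so these values are descriptions.

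In S. paradoxus the members lay lower than in S. cerevisiae, both with alpha factor, by a median of 0.26 log2 units. The difference was called for 9 of 42 members, all lower in S. paradoxus, where 7.25% of all genes were lower and 9.07% higher. In 19 of 40 members measured on every array, all S. paradoxus values lay below all S. cerevisiae values, where 18.5% of all genes did, and in 2 all lay above, where 20% did. UTP18 differed most, at −0.67 (95% interval −1.0 to −0.33; adjusted p = 0.0109), from means of −0.72 ± 0.127 in S. paradoxus and −0.050 ± 0.0442 in S. cerevisiae (SD, n = 3 each). RRP9 differed by −0.53 (adjusted p = 0.0116), UTP5 by −0.54 (0.0132), SOF1 by −0.48 (0.0148) and UTP6 by −0.47 (0.0175).

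The calls for NOC4, NAN1, UTP7 and DBP8 had adjusted p between 0.0187 and 0.0493. UTP7, which rose in both species, rose less in S. paradoxus, at a mean of 0.54, against 1.02 in S. cerevisiae (difference −0.48; 95% interval −0.80 to −0.17). The UTP7 call was lost without S. cerevisiae array 1 or 2 or S. paradoxus array 1 or 2 (adjusted p between 0.0569 and 0.15). The calls depended on single arrays: 2 of the 9, UTP18 and RRP9, stayed whichever array was left out. Without S. paradoxus array 2 only those 2 were called, and without S. paradoxus array 3 there were 14 calls. Scaling all arrays to the same spread left 5 calls (4 lower and 1 higher) and a median difference of −0.15. UTP21 and NSR1, which fell strongly in both species, differed by −0.21 (95% interval −0.46 to 0.053) and −0.23 (−0.66 to 0.20) and were not called.

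**Figure D4:**
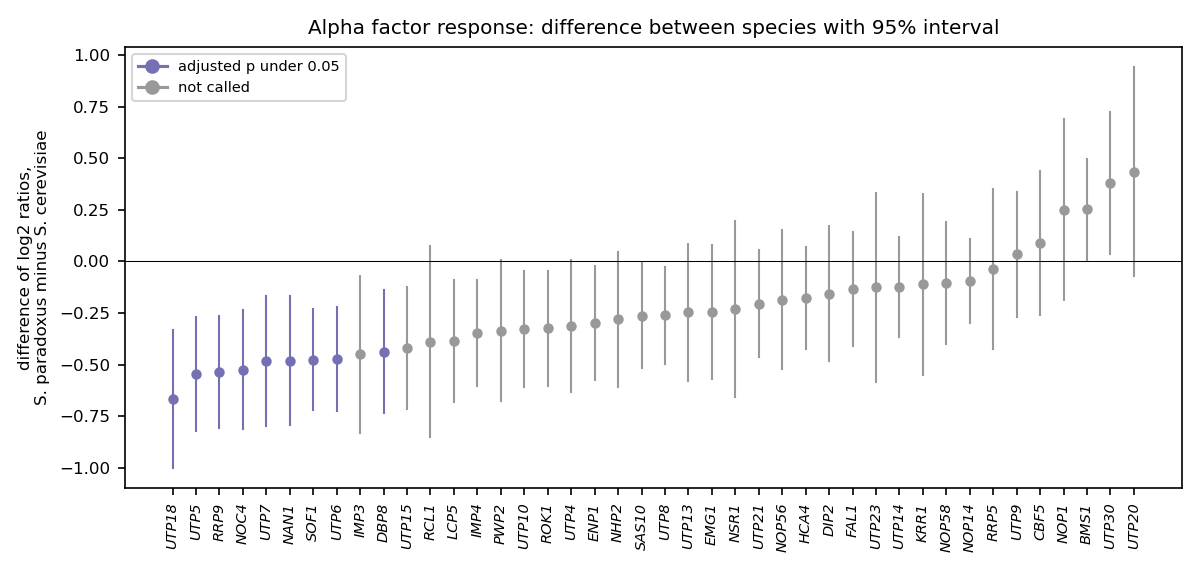
Difference in log2 ratio, S. paradoxus minus S. cerevisiae, both with alpha factor, for the 42 members tested (points), with 95% intervals from the limma fit. The called members are marked; all 9 lie below 0, between −0.67 and −0.44.

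S. mikatae and S. cerevisiae with alpha factor differed by a median of −0.086 over 44 members, and 1 member, UTP18, was called, where 5.49% of all genes were lower and 6.38% higher. The median was −0.045 without S. cerevisiae array 1. With array weights 7 members were called (4 lower and 3 higher), and with a common spread 4 (2 lower and 2 higher). The difference for UTP18 was −0.62 (95% interval −0.93 to −0.31; adjusted p = 0.0135), from means of −0.67 ± 0.330 (SD, n = 4) and −0.050 ± 0.0442 (SD, n = 3). That call was lost without S. cerevisiae array 3 (adjusted p = 0.0557). In 7 of 41 members all S. mikatae values lay below all S. cerevisiae values and in 3 above, where 13% and 13.3% of all genes did. The UTP18 result uses the same S. cerevisiae arrays as the S. paradoxus comparison. ECM16 differed by −0.046 (95% interval −0.26 to 0.17) and UTP21 by −0.074 (−0.32 to 0.17) and neither was called.

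S. mikatae and S. paradoxus differed by a median of 0.16 over 39 members, the S. mikatae ratios being nearer 0. The difference was called for 4 members, all higher in S. mikatae, where 6.04% of all genes were higher and 7.68% lower. SOF1 differed by 0.47, from −0.12 ± 0.163 in S. mikatae (SD, n = 4) and −0.59 ± 0.114 in S. paradoxus (SD, n = 3; adjusted p = 0.0123). HCA4 differed by 0.41 (adjusted p = 0.0219), UTP6 by 0.37 (0.0416) and DBP8 by 0.43 (0.0471). In 6 of 38 members all S. mikatae values lay above all S. paradoxus values, and in 0 below, where 11.8% and 13.9% of all genes did. None of the 4 calls was left without S. paradoxus array 2, where their adjusted p lay between 0.0508 and 0.153. Without that array the median difference was 0.088. Without S. paradoxus array 3 there were 6 calls.

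The mating response of the members was not the alpha factor response of the same species. Of 26 members tested in both, 9 were called higher in mating than with alpha factor and 1 lower, where 8.63% of all genes were higher and 7.37% lower, and the median difference was 0.28. In 13 of 24 members measured on every array, all mating values lay above all alpha factor values, where 20.6% of all genes did, and in 1 all lay below, where 19.7% did. NSR1 differed by 1.09 (95% interval 0.67 to 1.52; adjusted p = 0.00279), ECM16 by 0.87 (0.64 to 1.09; 0.000302) and GAR1 by 0.86 (0.64 to 1.09; 0.000272). ROK1 and HCA4 differed by 0.67 and 0.62 (adjusted p = 0.00403 and 0.00333). All 5 of these were well below 0 with alpha factor and, except for ECM16, within 0.25 of 0 in mating.

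KRR1, an RNA-binding KH-domain protein, gave 0.24, 0.39 and 0.12 in mating, against −0.75, −0.59 and −0.47 in S. cerevisiae with alpha factor, a difference of 0.85 (adjusted p = 0.0139). KRE33, UTP21 and IMP4 completed the 9, with differences of 0.63, 0.50 and 0.37 (adjusted p = 0.0159, 0.015 and 0.0491). Calls of these 4 depended on single arrays. KRR1 was lost without mating array 2 (adjusted p = 0.0518), UTP21 without mating array 3 or alpha factor array 3 (0.0589 and 0.0513), KRE33 without mating array 1 or 3 or alpha factor array 1 (0.0505 to 0.0558), and IMP4 without any 1 of the 6 arrays (0.0646 to 0.139). Mating and alpha factor arrays also differed in time (90 and 60 min), in growth on a filter against liquid medium, in the presence of alpha cells and in the kind of reference, so the treatment and these conditions cannot be told apart.

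UTP4 (YDR324C) was the 1 member called lower in mating than with alpha factor. It is a UTP-A protein whose human counterpart is cirhin. Its ratios were −0.24, −0.31, −0.13 and −0.50 in S. mikatae, −0.58, −0.68 and −0.41 in S. paradoxus, −1.10, −1.30 and −1.15 in mating, and 0.12, −0.37 and −0.48 in S. cerevisiae with alpha factor. Every mating array of UTP4 lay below every other array. The mating fall was 2.27-fold (mean −1.18 ± 0.103, SD, n = 3; adjusted p = 2.00e-06), the 24th lowest of 3712 genes, and the difference from S. cerevisiae with alpha factor was −0.94 (95% interval −1.26 to −0.62; adjusted p = 0.00111). Both calls stayed when any 1 array was left out. With alpha factor, UTP4 fell in S. mikatae (adjusted p = 0.0163, lost without array 4 at 0.0946) and S. paradoxus (0.000709), and in S. cerevisiae it missed the threshold (0.0902), except without array 1 (0.00974). YCG1, a condensin gene next to UTP4 in S. cerevisiae, was lower in mating too, at −0.48, and at −0.12 with alpha factor. PEP7, on the other side, had 2 values in mating, with a mean of 0.22 that was not called (adjusted p = 0.161), and was at −0.024 in S. cerevisiae with alpha factor. It was called higher in S. paradoxus with alpha factor, at 0.59 from 2 values (adjusted p = 0.00373). Both neighbours were looked up after the UTP4 values were seen, and their part in the result was not tested.

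IMP3 rose in mating, with 0.59, 0.65 and 0.58 (mean 0.61 ± 0.0386, SD, n = 3; adjusted p = 0.00205). All 3 mating values lay above the 3 S. cerevisiae alpha factor values, but the difference of 0.52 (95% interval 0.14 to 0.90) missed the threshold (adjusted p = 0.0608), except without alpha factor array 1 (0.0108). The genes beside IMP3 in S. cerevisiae, MRPL6 and SKG6, were both at 0.24 in mating and not called (adjusted p = 0.0768 and 0.166). With alpha factor SKG6 was called higher at 2.48 in S. mikatae, and was not called at −0.29 in S. paradoxus and 0.26 in S. cerevisiae. MRPL6 was called higher at 0.45 in S. mikatae and 0.29 in S. paradoxus, and was not called at 0.14 in S. cerevisiae. The other members called in mating were UTP7, higher, and UTP4, UTP21 and ECM16, lower. Over 26 members the mating and alpha factor means of S. cerevisiae had a Pearson's r of 0.456, or 0.249 without UTP7, where it was 0.655 over 3648 genes.

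**Figure D5:**
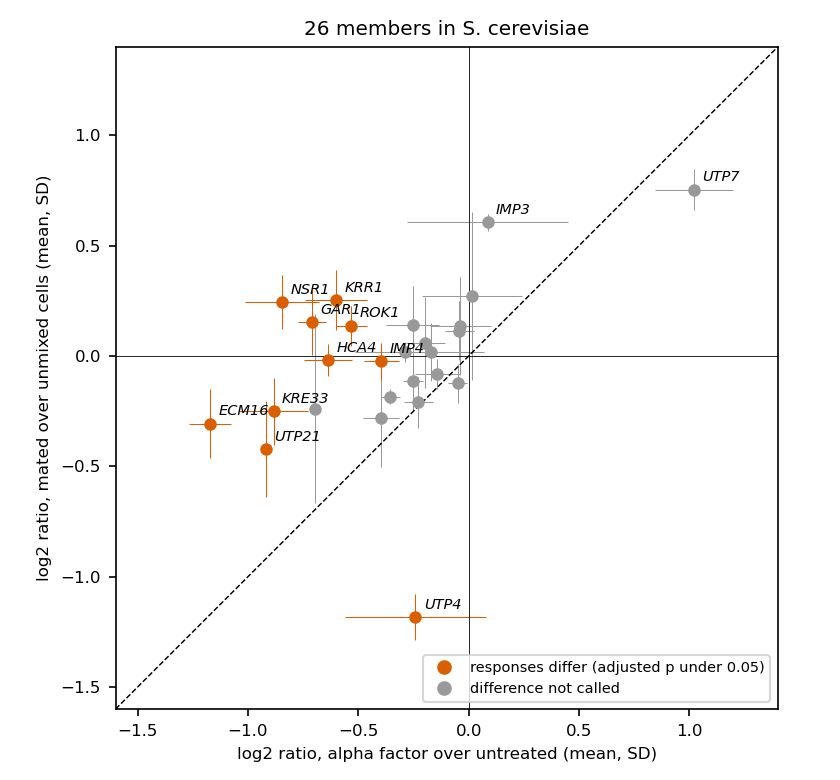
Mean log2 ratio in S. cerevisiae mating (vertical axis) against the mean with alpha factor (horizontal axis) for the 26 members tested in both (points; error bars are SD over arrays; orange where the responses differed), with a dashed line of equality. Most members lie above the line, UTP7 is high on both axes, and UTP4 lies below the line at −1.18 in mating and −0.24 with alpha factor.

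A list of 40 other 40S assembly factors, of which 38 were on the array, was set beside the members. Of that list 27 of 37 fell and 1 rose in S. mikatae, where 24.7% of all genes were lower and 23.3% higher, and 29 of 38 fell and 1 rose in S. paradoxus (24.6% and 23.9%). In mating 2 of 25 fell and 5 rose (20.2% and 19.4% of all genes), and 23 of 38 fell and 1 rose in S. cerevisiae with alpha factor (17.3% and 16.3%). The medians of that list were −0.44, −0.67, 0.0014 and −0.40 in the same order. Mating was called above alpha factor for 9 of 25 of these genes and below it for 0, against 8.63% and 7.37% of all genes. Of 5 known regulators of ribosome biogenesis genes, 2 of 4 tested fell and 1 rose in S. mikatae, 2 of 5 fell and 3 rose in S. paradoxus, 2 of 4 fell in mating, and 1 of 5 rose in S. cerevisiae with alpha factor, against the same shares of all genes. TOD6 and DOT6, repressors of these genes, were lower at −0.69 and −0.29 in S. paradoxus, TOD6 was lower at −0.48 in S. mikatae and DOT6 at −0.39 in mating, and STB3, another repressor, was higher at 0.17 in S. mikatae and 0.51 in S. paradoxus. SFP1, an activator, was lower at −0.41 in mating and higher at 0.37 in S. paradoxus. SCH9, the kinase that acts on those repressors, was higher at 0.31 in S. cerevisiae with alpha factor and at 0.55 in S. paradoxus and lower at −0.22 in S. mikatae.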

How the data were processed

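Per the labels, total RNA of each sample and of its reference was labelled in 2 colours and hybridised to arrays of S. cerevisiae cDNA. The authors deposited 1 value per ORF and array for 6132 ORFs, read here as a log2 ratio. The sources used here do not state the log base, centring, scanner, background correction, normalization within arrays or treatment of missing values. A value was taken as log2 of the treated or mated channel over the reference channel. Deposited medians of the arrays ran from −0.00931 to 0.00805, and the median was subtracted from each array. No spot intensity was used, so signal over background is unknown, and precision is limited by the number of arrays. An S. cerevisiae reference gene list named 5665 of the ORFs and all 48 members. No sequences were used, so mismatch between the probes and RNA of the other species was not measured.

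One limma model (limma 3.58.1 in R 4.3.3, with statmod 1.5.0 installed) covered all arrays, with 1 mean per group. It left 9 residual degrees of freedom for genes with all 13 values. Genes with fewer than 2 values in a group were not tested there. Responses were tested against 0 and differences as contrasts, by moderated tests with Benjamini-Hochberg adjustment over all genes tested, and a call is an adjusted p under 0.05. On simulated data, 91 to 96 of 100 genes changed by 0.5 were recovered in the 4 responses. In the 4 differences 53 to 74 of 100 were. False calls made up 2.97% to 7.11% of the calls. The simulated noise was normal and drawn for each gene alone, so no simulated array moved many genes together. Only genes with all 13 values were changed, 100 by 0.5 and 100 by 1. That is a smaller share than the 33.6% to 48.5% of all genes called in the 4 responses. The share of false calls holds for that setting only. As 18 members had all 13 values, recovery of the others was not simulated. Deviations of same-numbered arrays of different groups correlated at −0.262 to 0.332 over 18 pairs, of which 2 were over 0.1. Arrays with other numbers gave −0.335 to 0.393 over 45 pairs, of which 11 were over 0.1. Same-numbered arrays thus did not deviate together more than others, and numbers were not used as pairs. Genes named were the lowest and highest called members of each comparison, members called against the rest with their neighbours, and well-known members. The members, lists and tests were chosen with earlier results of these data known. Alternatives were no centring, a common spread, quantile normalization, complete genes only, only the groups compared, array weights and robust variances. Further alternatives were a block for the replicate number, entered as fixed terms, and each array left out in turn.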

Additional observations from a re-analysis of the deposited data

Results flagged for a closer look

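Within the 4 S. mikatae arrays, 43 values were checked for an array far from the others, the 42 members measured on all 4 arrays and their median. The median is made from the 42 members, so the 43 checks are not independent. Chance flags about 1 in 20 of such sets of 4 arrays, and 3 of 43 were flagged, which is near that rate. Flagged were IMP4 on array 4, at −0.489, HCA4 on array 1, at −0.301, and the median of the members on array 1, at −0.359. Each was nearer to 0 than the other 3 arrays.

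Differences between groups that passed the test, by the contrast itself, were as follows. S. paradoxus minus S. cerevisiae with alpha factor gave −0.667 for UTP18, −0.545 for UTP5, −0.535 for RRP9, −0.524 for NOC4, −0.483 for UTP7, −0.482 for NAN1, −0.476 for SOF1, −0.474 for UTP6 and −0.437 for DBP8. S. mikatae minus S. cerevisiae gave −0.619 for UTP18. S. mikatae minus S. paradoxus gave 0.371 for UTP6, 0.41 for HCA4, 0.425 for DBP8 and 0.468 for SOF1. Mating minus alpha factor in S. cerevisiae gave −0.941 for UTP4, 0.371 for IMP4, 0.496 for UTP21, 0.619 for HCA4, 0.633 for KRE33, 0.67 for ROK1, 0.855 for KRR1, 0.862 for GAR1, 0.866 for ECM16 and 1.09 for NSR1. Of these, 6 of 10 in mating minus alpha factor (UTP4, HCA4, ROK1, GAR1, ECM16 and NSR1) and 2 of 9 in S. paradoxus minus S. cerevisiae (UTP18 and RRP9) stayed called whichever array was left out, and no call did in the other 2 comparisons.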

How the results depend on the processing

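A count of called members was taken as kept if it changed by no more than 1.5 times. A median was taken as kept if it moved by no more than the SD of the array medians in its group. For a difference, the SDs of both groups were combined. By these rules 104 of 128 values were kept over 8 settings and 64 of 78 with 1 array left out. A median near 0 can change by a large share and still count as kept. For S. mikatae minus S. paradoxus it ran from 0.088 to 0.20 with 1 array left out. With arrays scaled to a common spread, the counts were 9 in mating (7 lower), 5 for S. paradoxus minus S. cerevisiae, 4 for S. mikatae minus S. cerevisiae and 1 for S. mikatae minus S. paradoxus, with medians of −0.36 in S. cerevisiae with alpha factor and −0.15 for S. paradoxus minus S. cerevisiae. Quantile normalization gave 8 in mating, 3 and 1 in the last 2 differences, and medians of −0.36 and −0.16. With only the 18 members measured on all 13 arrays, where fewer members were tested, 16, 18 and 12 were called in S. mikatae, S. paradoxus and S. cerevisiae with alpha factor, with medians of −0.68 in S. paradoxus and −0.25 in S. cerevisiae, and 5 and 1 for S. paradoxus minus S. cerevisiae and S. mikatae minus S. paradoxus. With only the groups compared, 9 were called in mating and 1 for S. mikatae minus S. paradoxus. Array weights gave 14, 7 and 7 in the 3 species differences. The replicate block called 8 in mating and moved no other count by over 1.5 times, though it pairs arrays by number alone. The cause of these changes was not tested. Shares of all genes called were not computed under these settings or with an array left out.

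Leaving out each array in turn, the counts ranged over 33 to 37 in S. mikatae, 34 to 37 in S. paradoxus, 5 to 6 in mating, 20 to 26 in S. cerevisiae with alpha factor, 2 to 14 for S. paradoxus minus S. cerevisiae, 0 to 3 for S. mikatae minus S. cerevisiae, 0 to 6 for S. mikatae minus S. paradoxus and 7 to 9 for mating minus alpha factor. Medians ranged from −0.36 to −0.31 in S. cerevisiae with alpha factor and from −0.38 to −0.21 for S. paradoxus minus S. cerevisiae. Calls that stayed whichever array was left out numbered 32 of 38 in S. mikatae, 32 of 39 in S. paradoxus, 4 of 5 in mating and 19 of 28 in S. cerevisiae with alpha factor. Over all members, comparisons and settings, 3579 values were counted as unchanged, 133 lost a call, 96 gained one and 0 calls turned their direction. An uncalled value that changed sign was counted as unchanged, whether or not it was then called.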
